A study of Mus musculus with 22 samples.

Results

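The genes described here are markers of the choroid plexus, the epithelium inside the brain ventricles, measured in the cortex and hippocampus of a mouse model of Down syndrome. They were taken from a list of 35 genes that the choroid plexus makes in quantity. Of these 33 were analysed, out of 20239 features with 1 gene symbol, and 2 listed genes were not analysed here. The 33 comprised 20 core genes, chosen as having little other source in the adult brain, and 13 genes that other brain cells also make. Clic6 and Kcne2, both core genes, lie in the chromosome segment that is triplicated in the model, and they are shown apart from the 31 others.

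The animals were female mice aged 8 to 10 weeks, 6 Ts1Cje and 5 wild-type (WT) littermates, from Ts1Cje males backcrossed to C57Bl/6J. Ts1Cje mice carry an extra copy of the distal part of chromosome 16, so that a gene of this segment is present in 3 copies where WT mice have 2. The segment was read as the genes from the one after Sod1 to Zbtb21. Each animal gave 1 cortex and 1 hippocampus array, 22 arrays in all, hybridized with total RNA of whole dissected tissue. Values are log2 signals, on which a difference of 1 is a doubling, and the number of arrays limits the precision.

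The choroid plexus secretes the cerebrospinal fluid. Its epithelial cells move sodium, chloride, bicarbonate and water into the ventricle through pumps, cotransporters and channels. They also release carrier proteins and growth factors, of which transthyretin is the most abundant. One plexus hangs in the lateral ventricle, beside the hippocampus. Neurons and glia of the cortex and hippocampus make little of most core genes.

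The labelled tissues were checked with neuron markers. All 8 hippocampal neuron markers (Prox1, C1ql2, Tdo2, Dsp, Wfs1, Grp, Fibcd1 and Zbtb20) were called higher in hippocampus in both genotypes. Of 7 cortical neuron markers 6 (Tbr1, Rorb, Cux2, Lamp5, Rspo1 and Myl4) were called lower there. The exception, Fezf2, was called higher in hippocampus, by 0.64 in WT and 0.46 in Ts1Cje. Among all genes 11.8% were called higher in hippocampus in WT and 15.1% in Ts1Cje. The cortex arrays also carried RNA of striatal marker genes, with a mean log2 signal over the 5 markers (Drd1, Drd2, Ppp1r1b, Rgs9 and Penk) of 10.2 to 10.9 against 7.79 to 8.27 in hippocampus. WT animal 60 and Ts1Cje animal 64 stood apart: their arrays correlated with the others of the region at a median r of 0.967 and 0.976 in cortex and 0.991 and 0.985 in hippocampus, against 0.995 to 0.997 for the other animals. Values without both animals are given beside results below.

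Results turn mainly on 3 genes. Ttr (Entrez 22139) encodes transthyretin, the carrier of thyroid hormone and of retinol-binding protein, and lies outside the segment. Clic6 (Entrez 209195) encodes a chloride intracellular channel protein. Kcne2 (Entrez 246133) encodes the accessory subunit that pairs with the potassium channels KCNQ1 and KCNA3 in the plexus. Promoter windows were read because the members move together between animals, as described below, and because Otx2 (Entrez 18424), the homeodomain factor needed to form and maintain the plexus, is itself a member. Each window holds 250 bases before to 50 bases after a gene's start, from RefSeq on GRCm38.p6, and 28 of the 33 genes had an entry, with 41 windows. The OTX2 core letters TAATCC, on either strand, are in capitals. Shown are the windows of Ace and Abca4, where these letters lay closest before the start, that of Otx2, and both windows of Kcne2, which hold none. The Ace window is at chr11:105967698-105967997 (plus strand), that of Abca4 at chr3:122044210-122044509 (plus), that of Otx2 at chr14:48665060-48665359 (minus), and those of Kcne2 at chr16:92292139-92292438 and chr16:92295366-92295665 (both plus).
Ace: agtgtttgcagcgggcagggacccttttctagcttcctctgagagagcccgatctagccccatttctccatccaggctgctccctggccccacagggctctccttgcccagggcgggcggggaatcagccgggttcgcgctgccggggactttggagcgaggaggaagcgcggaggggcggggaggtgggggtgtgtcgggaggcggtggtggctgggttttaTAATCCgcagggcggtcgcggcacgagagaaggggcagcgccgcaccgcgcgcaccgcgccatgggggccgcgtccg
Abca4: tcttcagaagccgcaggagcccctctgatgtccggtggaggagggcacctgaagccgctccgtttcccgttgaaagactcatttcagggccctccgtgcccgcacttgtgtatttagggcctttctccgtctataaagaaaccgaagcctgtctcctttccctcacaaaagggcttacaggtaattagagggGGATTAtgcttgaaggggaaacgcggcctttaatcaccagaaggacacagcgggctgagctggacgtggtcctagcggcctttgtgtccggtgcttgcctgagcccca
Otx2: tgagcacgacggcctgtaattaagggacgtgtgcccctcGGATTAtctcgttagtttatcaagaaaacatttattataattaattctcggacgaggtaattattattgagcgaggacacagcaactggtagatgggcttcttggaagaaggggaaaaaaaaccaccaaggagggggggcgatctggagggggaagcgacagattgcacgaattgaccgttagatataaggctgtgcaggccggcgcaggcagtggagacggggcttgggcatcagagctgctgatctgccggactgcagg
Kcne2, first window: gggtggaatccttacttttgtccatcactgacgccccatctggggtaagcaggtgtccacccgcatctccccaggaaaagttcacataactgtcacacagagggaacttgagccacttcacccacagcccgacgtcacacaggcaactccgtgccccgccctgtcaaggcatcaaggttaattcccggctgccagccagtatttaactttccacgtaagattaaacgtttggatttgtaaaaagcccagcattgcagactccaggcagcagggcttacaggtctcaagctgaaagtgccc
Kcne2, second window: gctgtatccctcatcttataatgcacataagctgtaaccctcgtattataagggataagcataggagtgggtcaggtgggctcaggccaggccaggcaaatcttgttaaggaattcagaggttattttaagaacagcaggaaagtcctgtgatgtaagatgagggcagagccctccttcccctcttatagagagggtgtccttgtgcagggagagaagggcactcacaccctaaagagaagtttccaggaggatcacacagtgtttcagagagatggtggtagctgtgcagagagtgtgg

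TAATCC or its complement GGATTA was found in 5 of the 41 member windows, 12.2%, and in 7.06% of all 32851 windows kept, of the same length. The 5 windows belonged to Abca4, Ace, Car14, Igf2 and Otx2. The match began 27 bases before the start in Ace, 58 before it in Abca4, 61 before it in Car14 and 211 before it in Otx2, and 10 bases after it in Igf2. CAATTA, the letters of MSX1, a factor whose gene is also a member, was found on either strand in 5 of 41 windows, 12.2%, against 8% of all windows. The forkhead letters TGTTTAC were found on either strand in 0 of 41 windows and in 3.65% of all. On the opposite strand the MSX1 letters read TAATTG and share TAAT with the OTX2 letters. A match describes the letters of a window and shows no binding, and these shares rest on 5 windows each.

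The signal of Ttr and other choroid plexus genes differed widely between the cortex samples. Ttr had the largest spread between animals of all 20239 genes there, with a pooled standard deviation (SD) within genotype groups of 1.84. Its log2 signal in the WT cortex arrays was 8.29 in animal 60, 9.58 in 62, 12.49 in 65, 8.56 in 95 and 12.60 in 98. In the Ts1Cje cortex it ran from 8.01 in animal 94 through a median of 10.98 to 12.47 in animal 97. Both genotypes thus held animals with little and animals with much Ttr, and the groups overlapped over nearly the whole range, which spans 24.1-fold. The 4 highest values came from WT animals 65 and 98 and Ts1Cje animals 63 and 97.

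Several other plexus genes of the cortex spread in the same animals. Kcnj13 (Kir7.1, an apical potassium channel) ranked 8th of all genes by SD, with a range from 7.39 in WT animal 60 to 9.99 in Ts1Cje animal 97, or 6.08-fold. Kl (klotho, a co-receptor for the hormone FGF23) ranged over 4.18-fold, F5 (coagulation factor V) over 3.80-fold and Clic6 over 3.44-fold. Kl and F5 ranked 33rd and 115th. The highest value of a member fell in animal 97 for 14 of the 33 genes and in animal 98 for 8. It fell in animal 60 for 5, among them Kcne2 and Aqp1, although cortex Ttr was only 8.29 there. In animal 64 it fell for 4.

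The 13 members that other brain cells also make differed among themselves in spread. Cab39l (a partner of the kinases that regulate chloride cotransport) ranged over 2.32-fold in cortex, Car12 (a membrane carbonic anhydrase) over 2.23-fold, Lbp (a binding protein for bacterial lipopolysaccharide) over 2.18-fold and Trpm3 (a cation channel) over 1.79-fold. Slc12a4 (the potassium-chloride cotransporter KCC1) ranged over only 1.18-fold and Ezr (ezrin, which anchors microvilli) over 1.19-fold. Igf2 (an insulin-like growth factor, also made by meninges) had an SD at the 53.8th percentile of all genes, and at the 96.5th without animals 60 and 64. Of the 33 members 11 were among the 10% of genes with the largest SD, 10 of them core genes. The other was Cab39l, whose lowest values, 7.91 and 8.10, were those of animals 60 and 64. Without these animals 24 members were in that group.

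**Figure D1:**
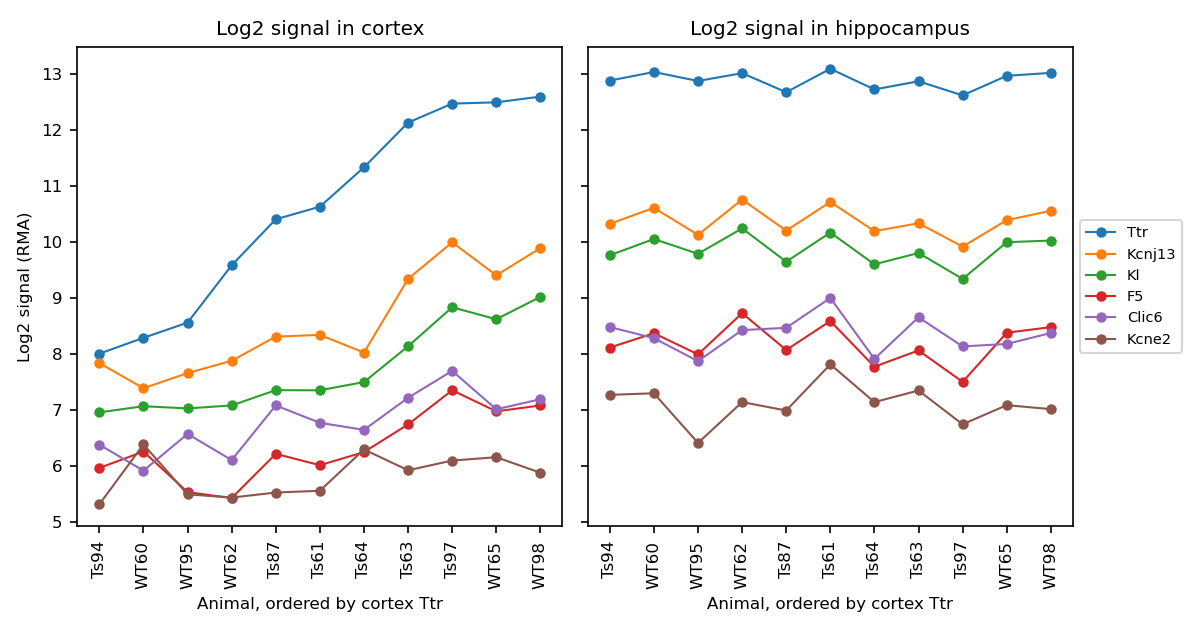
Log2 signal (vertical axis) of 6 choroid plexus genes in each of the 11 animals, ordered from left to right by cortex Ttr, in cortex (left panel) and hippocampus (right panel); each point is 1 array and lines join points of a gene. Cortex Ttr climbs from 8.01 to 12.60 and Kcnj13, Kl and F5 climb with it, while in hippocampus Ttr stays between 12.62 and 13.09 in the same animals.

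In the hippocampus Ttr was high in every sample. It was 13.04, 13.02, 12.97, 12.88 and 13.02 in WT animals 60, 62, 65, 95 and 98. In Ts1Cje it ran from 12.62 in animal 97 through a median of 12.80 to 13.09 in animal 61. The range was 1.39-fold and the SD of 0.137 stood at the 46.6th percentile of all genes, and at the 80.3rd without animals 60 and 64. The Ttr signal lay close to the highest of any feature on these arrays, which was 13.4 to 13.7, and the part of that in its small spread was not tested.

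Other members spread more there. Sostdc1 (a secreted inhibitor of BMP and Wnt signals) had the largest SD of the members, 0.416, and ran from 8.09 in Ts1Cje animal 97 to 9.56 in Ts1Cje animal 61. Kcne2 followed with an SD of 0.353 and Tmem72 (a transmembrane protein) with 0.352. Ts1Cje animal 97 was the lowest of all 11 animals for 23 of the 33 members, and this animal had nearly the highest Ttr of the cortex. Wfdc2 (a secreted WAP-domain protein) was nearly constant, at 6.40 to 6.56, with an SD at the 1.25th percentile (6.62nd without animals 60 and 64).

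Ttr in the 2 regions of an animal gave no correlation past the threshold. Across the 11 animals, with genotype means removed, Ttr in hippocampus and Ttr in cortex had a Pearson r of -0.17 (permutation p = 0.63) and a Spearman rho of -0.23 (permutation p = 0.502). Without animals 60 and 94, the 2 farthest from the median of cortex Ttr, r was 0.0020. This and 4 further relations given below form 1 family of 5, and the adjusted p of this one was 0.63 for r. With the narrow range of hippocampal Ttr, close to the highest signals, and 11 animals, this does not show that the regions were unrelated.

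Within a region the members varied together. In hippocampus 13 of the 32 other members had an r with Ttr above 0.8 across animals (genotype means removed), and the median r was 0.769; of all genes 0.193% passed 0.8. Without animals 60 and 64 it was 20 of 32, with a median of 0.836, against 1.03% of all genes. In cortex 6 of 32 passed 0.8 with a median r of 0.618, against 0.0741% of all genes, and without animals 60 and 64 19 of 32 did, with a median of 0.847, against 0.82%. These r describe 11 or 9 arrays that share their library and their tissue piece.

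Among the 32 other members, Kl followed Ttr most closely in both regions when all animals were included. In hippocampus Kl had an r of 0.924, Kcne2 0.902, Kcnj13 0.887 and Otx2 0.880. In cortex the same list began with Kl at 0.921, Kcnj13 at 0.902 and Sostdc1 at 0.885. Wfdc2 followed Ttr weakly in hippocampus, at 0.179, and Car14 (a further membrane carbonic anhydrase) had -0.068 in cortex, and 0.323 without animals 60 and 64. Among genes outside the list, those most like Ttr in hippocampus were Defb11 at 0.925, Slc2a12 at 0.923, Gmnc at 0.916, Cyp26a1 at 0.905 and Olfr1214 at 0.890. Defb11 thus ranked above every member, and Olfr1214 had a mean log2 signal of only 2.54. In cortex they were Pxn at 0.895, Mtfr1 at 0.892, Mettl26 at 0.827, Gmnc at 0.820 and Slc2a12 at 0.819. Slc2a12 (a glucose transporter) and Gmnc (a regulator of multiciliated cells) were in both. Without animals 60 and 64 the 5 were Slc31a1, Uts2b, Elf5, Defb11 and Maob in hippocampus and Pon3, Ecrg4, Gmnc, Fam81b and Gm10224 in cortex. Among the members Trpv4 then led in hippocampus at 0.979, with Kl at 0.925. Tmem72 then led in cortex at 0.961, with Kl at 0.933.

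**Figure D2:**
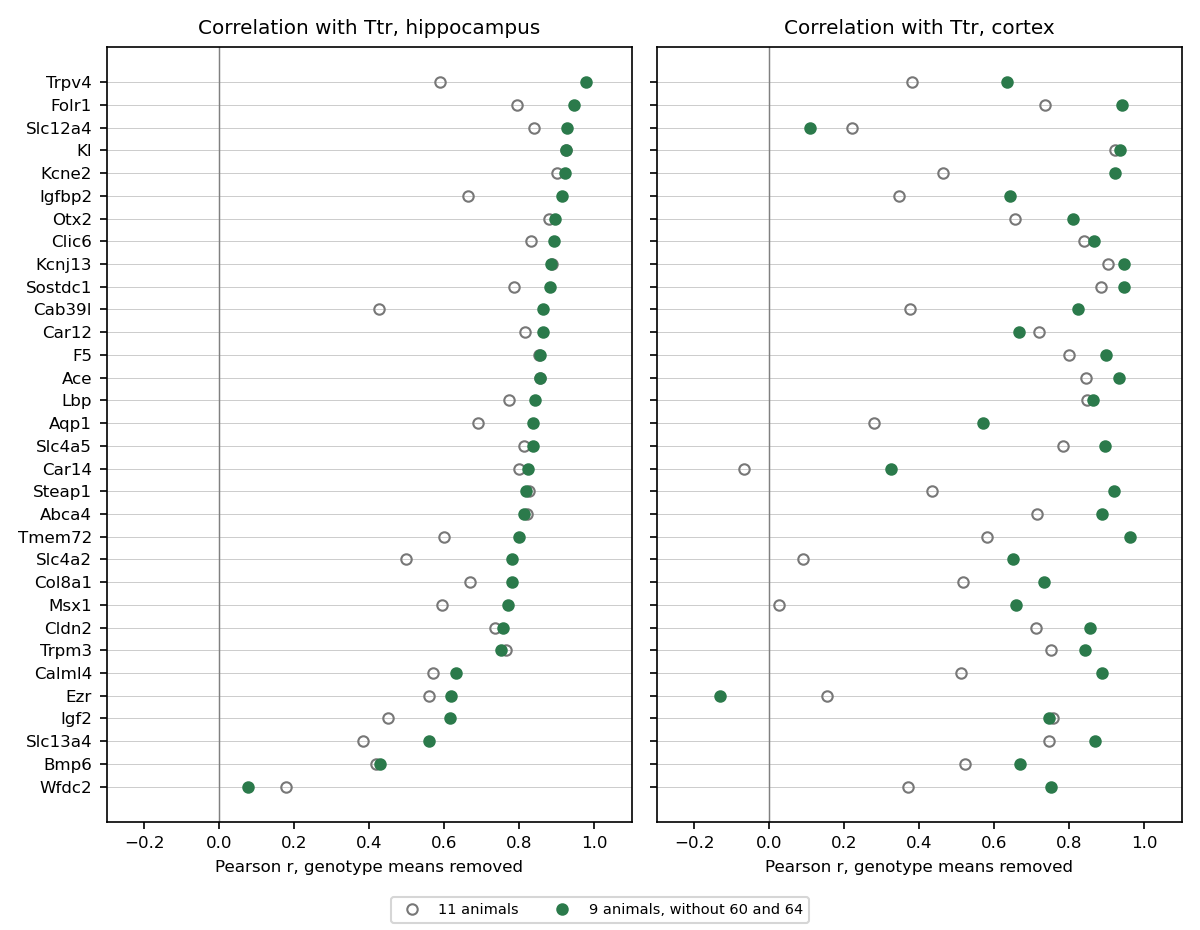
Pearson r with Ttr (horizontal axis) of each of the 32 other choroid plexus genes across animals of the hippocampus (left panel) and cortex (right panel), genotype means removed; open circles use 11 animals and filled circles 9, without animals 60 and 64. Most filled circles lie to the right of the open ones, and the median r moves from 0.769 to 0.836 in the left panel and from 0.618 to 0.847 in the right.

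Both genes of the segment followed Ttr in hippocampus. For Kcne2 r was 0.902 (permutation p = 0.0003, adjusted 0.0015) and rho 0.8 (permutation p = 0.0044, adjusted 0.011). For Clic6 r was 0.831 (permutation p = 0.00278, adjusted 0.00463) and rho 0.764 (permutation p = 0.00884, adjusted 0.0147). Without animals 61 and 97, the 2 farthest from the median of Ttr, r was 0.792 for Kcne2 (permutation p = 0.0079) and 0.669 for Clic6 (permutation p = 0.0708). With fewer animals and a narrower range of Ttr, that of Clic6 thus no longer passed the threshold. Leaving out single animals gave an r of 0.84 to 0.96 for Kcne2 and 0.69 to 0.90 for Clic6. Without animals 60 and 64 r was 0.922 and 0.892. With the genotype means left in, r was 0.508 for Kcne2 and 0.444 for Clic6 (permutation p = 0.113 and 0.165).

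In cortex Clic6 followed Ttr and Kcne2 did so only in part. For Clic6 r was 0.838 (permutation p = 0.00194, adjusted 0.00463) and rho 0.855 (permutation p = 0.00134, adjusted 0.0067), and r was 0.734 without animals 60 and 94. For Kcne2 r was 0.462 (permutation p = 0.148, adjusted 0.185) and rho 0.427 (permutation p = 0.189, adjusted 0.236). Its 2 highest cortex values were 6.39 in WT animal 60 and 6.30 in Ts1Cje animal 64, the animals whose arrays stood apart. Without both, r was 0.921 (permutation p = 0.00054).

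Between the regions nearly every member was higher in hippocampus. The median of all features was lower on hippocampus arrays by 0.63, or 1.55-fold, so each array was first centred on its median, and differences are relative to the median feature. In WT 32 of 33 members were called higher in hippocampus (limma adjusted p under 0.05), where 11.8% of all genes were. All 5 hippocampus arrays lay above all 5 cortex arrays for 31 of the 33, against 10.7% of all genes. In Ts1Cje 32 of 33 were called higher, against 15.1% of all genes, and the arrays did not overlap for 29 of 33, against 7.86%. The member not called was Msx1 in both genotypes. Without the centring 24 members were called higher and 4 lower in WT, and 23 higher and 5 lower in Ts1Cje.

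The 9 secreted proteins had a median difference of 1.18 in WT, against 1.30 for 13 channels and transporters and 1.40 for 5 receptors and surface enzymes; these classes were not compared by a test. Ttr was 3.30 ± 0.766 (SE; adjusted p = 0.00254) higher in WT hippocampus, a fold of 9.82 and the largest rise of all 20239 genes, and 2.62 ± 0.699 (adjusted p = 0.00664) higher in Ts1Cje. Among the members it was followed in WT by Kl at 2.88, which in Ts1Cje stood at 2.67. In neither genotype did the centred Ttr cortex and hippocampus values overlap. F5 stood at 2.75 ± 0.299 in WT and Sostdc1 at 2.59 ± 0.247. Lbp stood at 1.99 ± 0.184, Igf2 at 1.18 ± 0.140 and Wfdc2 at 1.11 ± 0.0843. Col8a1 (a collagen chain), Igfbp2 (a binding protein for Igf2) and Bmp6 (a growth factor) followed at 1.05, 0.71 and 0.53. All 9 secreted proteins were called in both genotypes.

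The channels and transporters were likewise all called in both genotypes. Kcnj13 was 2.66 ± 0.418 higher in WT hippocampus, Clic6 2.28 ± 0.251 and Slc4a5 (a sodium-bicarbonate cotransporter of the plexus) 2.16 ± 0.233. Tmem72 stood at 2.01, Kcne2 at 1.74 ± 0.216 and Steap1 (a metalloreductase family protein) at 1.36. Clic6 and Kcne2 had the 1st and 2nd largest difference of the 73 segment genes measured, whose median was 0.014. Abca4 (a retinoid transporter), Trpm3, Aqp1 (the apical water channel) and Trpv4 (a cation channel that responds to osmotic change) lay between 1.30 and 1.03. Slc13a4 (a sulfate transporter), Slc4a2 (an anion exchanger) and Slc12a4 were lowest at 0.89, 0.68 and 0.25.

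Among receptors and surface enzymes Kl was 2.88 ± 0.353 higher in WT hippocampus. Folr1 (the folate receptor alpha) stood at 1.85 ± 0.232. The carbonic anhydrases Car12 and Car14 stood at 1.40 ± 0.166 and 0.39 ± 0.0831, and Ace (angiotensin-converting enzyme) at 1.25 ± 0.151. Of the transcription factors Otx2 was 1.73 ± 0.210 higher. Msx1, a homeobox gene of the plexus and of other tissues, was 0.20 ± 0.145 higher in WT (adjusted p = 0.363) and 0.082 ± 0.133 in Ts1Cje (adjusted p = 0.699). Of the remaining 4 genes Calml4 (a calmodulin-like protein) and Cldn2 (a claudin that forms a paracellular pore) stood at 2.09 and 2.06, and Cab39l and Ezr at 0.62 and 0.39. Without animal 62, 65 or 95 in WT the Cab39l difference was 0.62, 0.67 or 0.65 and not called (limma adjusted p = 0.0589 to 0.0792). In Ts1Cje it was 0.56 with all animals, and 0.53 to 0.58 and not called without 61, 63, 87 or 94 (limma adjusted p = 0.0576 to 0.0844).

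**Figure D3:**
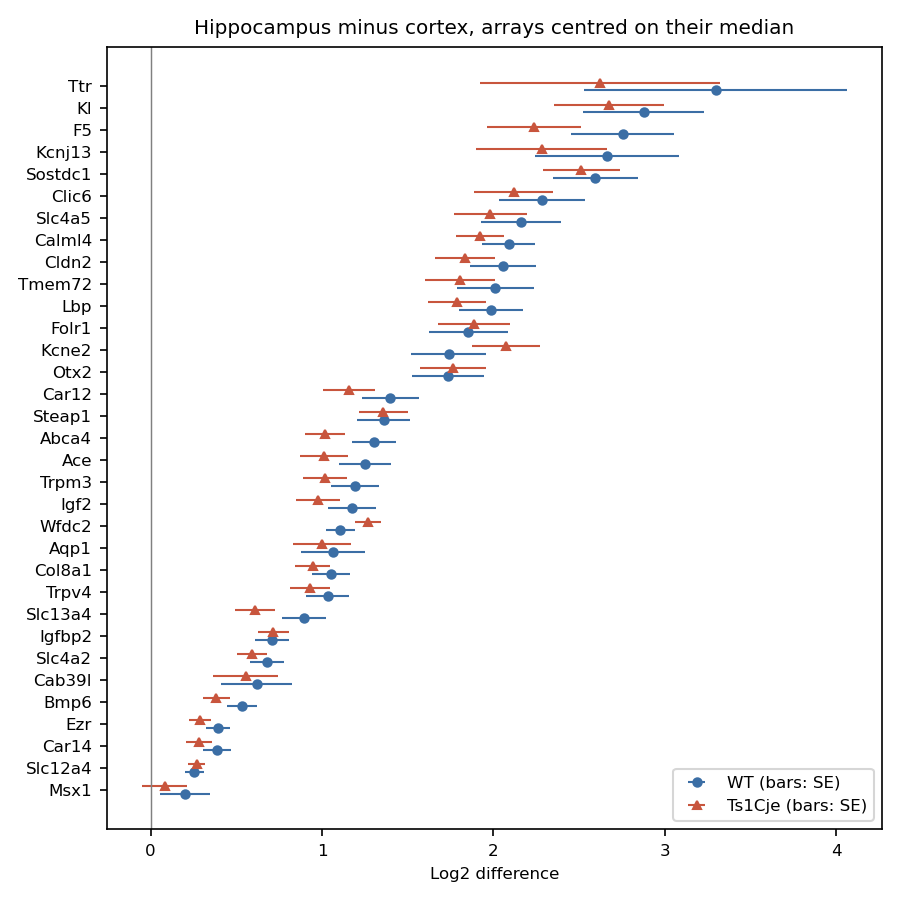
Difference in log2 signal between hippocampus and cortex (horizontal axis, arrays centred on their median) for each of the 33 choroid plexus genes, in WT (circles, 5 animals) and Ts1Cje (triangles, 6 animals); bars are standard errors. Every point lies above 0, from 0.20 for Msx1 to 3.30 for Ttr in WT, and the widest bars belong to Ttr and Kcnj13, whose cortex values spread most.

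Markers of the neighbouring cell types differed between the regions too. For comparison, 11.8% of all genes were called higher in hippocampus in WT and 15.1% in Ts1Cje. Called lower were 2748 and 2900 of all 20239 genes. All 10 ependymal markers (Foxj1, Ccdc153, Tmem212, Rsph1, Dynlrb2, Mia, Ak7, Pifo, Rarres2 and Tekt4) were called higher in hippocampus in both genotypes, with a median of 0.79 in WT and a mean level over the list of 6.32 to 6.45 in WT hippocampus and 6.14 to 6.42 in WT cortex. Of 13 meningeal and fibroblast markers 4 were called higher in WT, Dcn at 2.03, Lum at 1.26, Mgp at 0.53 and Slc6a13 at 0.47, and Crabp2 was called lower at -0.34; the mean level was 7.06 to 7.40 in WT hippocampus and 7.30 to 7.59 in WT cortex. Of 8 endothelial and 7 pericyte markers 0 were called in WT or Ts1Cje; 1 endothelial and 0 pericyte markers had an unadjusted p under 0.05 in each genotype. The part of these cells in the members' difference was not tested. RNA of each region was extracted with a different kit, so region and kit cannot be told apart. In bulk tissue fewer cells of a type and less RNA per cell cannot be told apart either.

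Other genes of fluid secretion and of the epithelium gave the same picture in part. Of 53 such genes listed 49 were measured, and 25 were called in WT. Of these 21 were higher in hippocampus, where 2385 of all 20239 genes were, and 4 lower, where 2748 were. Lower were Kcna1, Kcna3, Abcc1 and Vegfa. Higher were the transporters Slco1a5, Slc29a4, Slc28a3, Slc2a12 and Slc31a1, the sodium pump subunits Atp1b1 and Atp1b2, the junction genes Cldn1, Ocln, Cdh3 and Perp, and Car4, Lrp2, Rdh5, Stra6, Spint2, Krt18, Dab2, Baiap2l1, Mdk and Gmnc. The largest differences were 1.96 ± 0.117 for Gmnc, 1.83 ± 0.109 for Slc29a4 (a monoamine transporter) and 1.79 ± 0.175 for Cldn1 (a tight junction claudin). In Ts1Cje 24 were called, 21 higher and 3 lower, against 3050 and 2900 of all genes. There Kcna1, Car4 and Perp were not called and Pon1 (0.44) and Lmx1a (0.66) were. The largest there were Gmnc at 1.94, Slc29a4 at 1.57 and Slc2a12 at 1.55.

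Genotype was then compared within each region. In the hippocampus 0 of 33 members passed the threshold, where 23 genes of all tested did (0.114%). Of the 31 members outside the segment 29 nevertheless had a lower mean in Ts1Cje, at a median of -0.18 (log2) against -0.0064 over all genes. Both genes of the segment had a higher mean, Clic6 by 0.21 and Kcne2 by 0.23. Leaving out single animals moved Clic6 between 0.10 (without 61) and 0.32 (without 64), and Kcne2 between 0.083 (without 95) and 0.32 (without 97). Without animals 60 and 64 they were 0.33 and 0.32. At an unadjusted p under 0.05, 5 members were lower, against 1.69% of all genes. Since the members follow each other between animals, these means are not separate observations. Without animals 60 and 64 27 of 33 were below 0, and without Ts1Cje animal 97 also 27.

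Among the secreted proteins 7 of 9 lay below 0. Ttr differed by -0.17 ± 0.0806 (SE; limma adjusted p = 1), and the 4 lowest values were those of Ts1Cje animals. F5 was 8.37, 8.73, 8.38, 7.99 and 8.48 in WT animals 60, 62, 65, 95 and 98 and ran from 7.50 through a median of 8.07 to 8.59 in Ts1Cje, a difference of -0.37 ± 0.175 (adjusted p = 1). It was the largest difference of the members, and the groups overlapped. Igf2 and Lbp each stood at -0.18, Col8a1 at -0.16, Bmp6 at -0.13 and Sostdc1 at -0.11. Wfdc2 and Igfbp2 were above 0, at 0.058 and 0.040.

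Of the 13 channels and transporters all but Clic6 and Kcne2 lay below 0. Abca4 differed most clearly from its spread: WT animals 60, 62, 65, 95 and 98 had 7.29, 7.46, 7.26, 7.08 and 7.26, and Ts1Cje ran from 6.65 through 7.03 in animal 63 to 7.31. Only animal 61 of Ts1Cje overlapped with WT, and the difference was -0.29 ± 0.104 (limma adjusted p = 1, unadjusted 0.0164). Slc4a5 at -0.29 ± 0.130 and Trpv4 at -0.26 ± 0.105 also had an unadjusted p under 0.05. Tmem72 stood at -0.31, Steap1 at -0.24, Aqp1 at -0.23, Slc13a4 and Kcnj13 at -0.21, Trpm3 at -0.15, Slc4a2 at -0.12 and Slc12a4 at -0.047.

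All 5 receptors and surface enzymes lay below 0. Kl was 10.05, 10.24, 10.00, 9.79 and 10.03 in WT animals 60, 62, 65, 95 and 98 and ran from 9.34 through a median of 9.71 to 10.17 in Ts1Cje. Its difference was -0.30 ± 0.127 (limma adjusted p = 1), and only animals 61 and 63 of Ts1Cje lay within the WT range. Ace stood at -0.27, Folr1 at -0.22, Car12 at -0.15 and Car14 at -0.035. Of the transcription factors Otx2 stood at -0.22 ± 0.113 and Msx1 at -0.17 ± 0.0833. Cldn2 at -0.22, Ezr at -0.17 ± 0.0639, Calml4 at -0.12 and Cab39l at -0.022 completed the list. For 0 of 33 members did the groups separate completely. Of all 20239 genes 77 separated upward and 52 downward, so this count says little about the members.

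Markers of neighbouring cell types also lay lower on average. For comparison, 10877 of all 20239 genes were below 0, with a median of -0.0064. Of 10 ependymal markers 9 were below 0 in Ts1Cje hippocampus with a median of -0.086, at a mean level of 6.24 to 6.36 against 6.32 to 6.45 in WT. Of 13 meningeal and fibroblast markers 9 were below 0 with a median of -0.078, at 7.05 to 7.28 against 7.06 to 7.40. Of 7 pericyte markers 6 were below 0 with a median of -0.095, at 7.66 to 7.89 against 7.80 to 7.86. Of 8 endothelial markers 7 were below 0 with a median of -0.014, at 8.03 to 8.27 against 8.09 to 8.22. In these 4 lists 0 markers were called with limma; 1 ependymal, 1 meningeal, 2 pericyte and 0 endothelial markers had an unadjusted p under 0.05. The defining ependymal gene Foxj1 and the fibroblast genes Dcn and Lum were measured, and on this scale no marker is at 0. Of 49 fluid genes 33 were below 0 with a median of -0.045 and 0 were called; 3 had an unadjusted p under 0.05. The largest were Slc5a3 (an inositol transporter of the segment) at 0.33, Krt8 (an epithelial keratin) at -0.31 and Cldn1 at -0.27. A fall was not particular to these lists. Of 8 hippocampal neuron markers 5 were below 0 with a median of -0.079, and of 8 markers of thalamus and habenula 8, at -0.054. Of 7 cortical neuron markers 3 were below 0 with a median of 0.021, and of 5 striatal markers 2, at 0.051. The part of other cells in the members' difference was not tested.

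**Figure D4:**
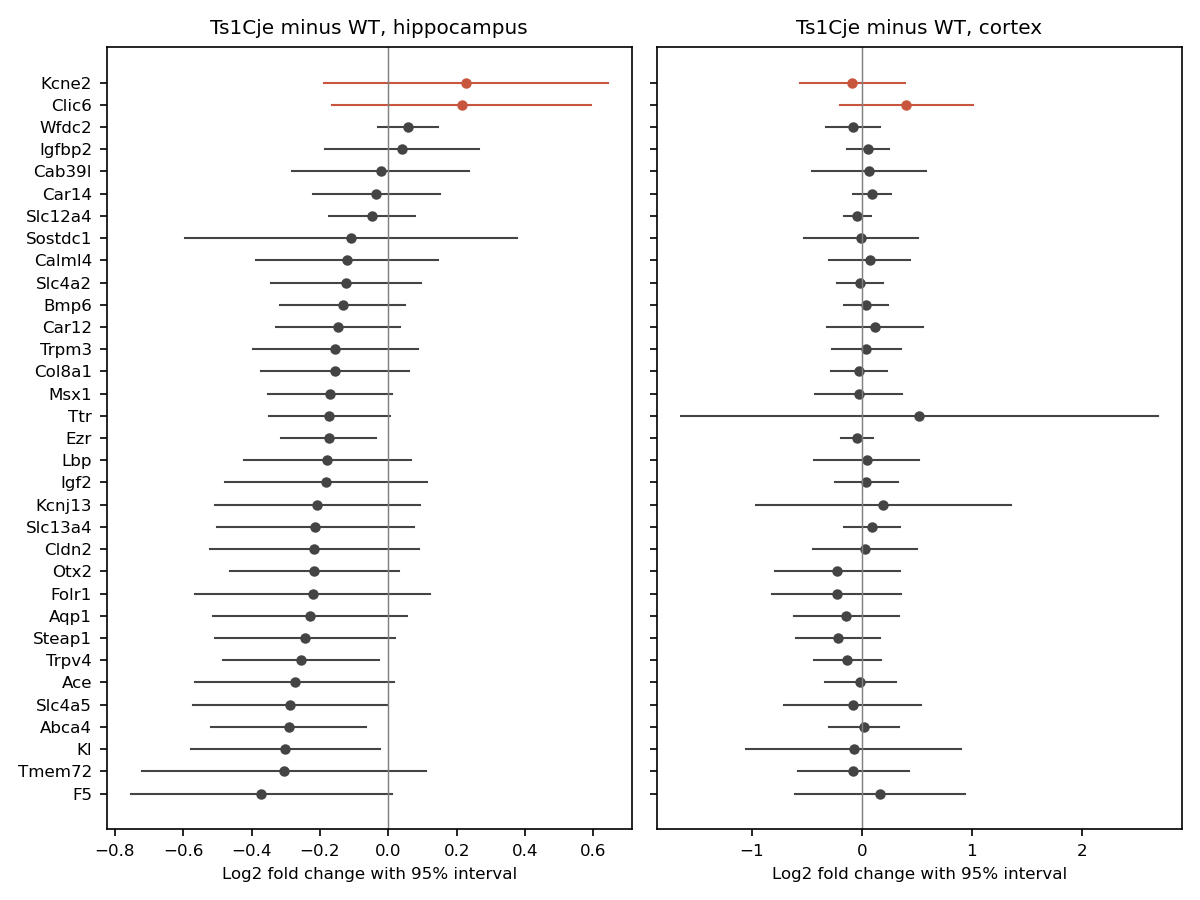
Log2 fold change of Ts1Cje over WT (horizontal axis, bars 95% confidence intervals) for each of the 33 choroid plexus genes in hippocampus (left panel) and cortex (right panel, wider axis); the 2 genes of the triplicated segment are in red. In hippocampus Kcne2 and Clic6 lie at 0.23 and 0.21 at the top while 29 of the other 31 lie below 0, and in cortex the intervals are wider, most of all for Ttr.

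The segment genes themselves were compared with their neighbours. In hippocampus, 71 of the 73 measured segment genes were above 0, with a median of 0.29 on the log2 scale, and 17 were called. A rise by the third copy alone would be 0.585. Kcne2 ranked 42nd and Clic6 45th. Along the chromosome, Atp5o, Slc5a3 and Mrps6 on one side of Kcne2 stood at 0.40, 0.33 and 0.26. Smim11, Fam243 and Kcne1 on the other stood at 0.33, 0.0010 and 0.061. Next came Rcan1 (an inhibitor of calcineurin), which stood at 0.39 ± 0.0456 and was called (limma adjusted p = 0.0209), and 2410124H12Rik at 0.065. Beyond Clic6 lay Runx1, Setd4 and Cbr1 at 0.047, 0.14 and 0.31. Rcan1 was the only neighbour called. Fam243, Kcne1, 2410124H12Rik, Runx1 and Setd4 had mean WT hippocampus signals of 4.75, 5.03, 5.07, 5.99 and 6.37. These lie below the hippocampus array medians of 6.91 to 6.95, and the other neighbours stood at 8.29 to 9.09. The part of a low signal in small differences was not tested.

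Set against the other plexus genes on the same array, Kcne2 was higher in every Ts1Cje hippocampus. Its log2 signal was 7.30, 7.14, 7.09, 6.41 and 7.02 in WT animals 60, 62, 65, 95 and 98 and ran from 6.75 through a median of 7.21 to 7.82 in Ts1Cje, with overlap. Minus the mean of the 18 core genes outside the segment it was -0.993, -1.07, -0.951, -1.42 and -1.04 in the same WT animals. In Ts1Cje it ran from -0.842 in animal 87 to -0.425 in animal 61. All 6 Ts1Cje animals thus lay above all 5 WT animals, with means of -0.656 ± 0.164 (SD, n = 6) and -1.10 ± 0.190 (SD, n = 5). The subtracted genes were themselves lower in Ts1Cje, 17 of 18 with a median of -0.22, which adds to this separation. Before the subtraction Kcne2 differed by 0.23 ± 0.190 (SE).

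The same subtraction separated 92 of all 20239 genes upward (0.455%), of which 17 were among the 73 segment genes. Igfbp2 was the only other member among them, although it differed by only 0.040 before the subtraction. Taken against each core gene singly, Kcne2 separated the groups for 7 of 18: Kl, Folr1, Kcnj13, Aqp1, Slc4a5, Otx2 and Steap1. These 7 themselves had lower means in Ts1Cje, by -0.21 to -0.30, which adds to the separation. The share of other genes that they would separate was not computed.

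Clic6 still overlapped between genotypes after the subtraction, in 1 Ts1Cje animal. Its log2 signal in hippocampus was 8.28, 8.43, 8.18, 7.87 and 8.38 in WT animals 60, 62, 65, 95 and 98 and ran from 7.91 through a median of 8.48 to 9.00 in Ts1Cje. Minus the core mean it was 0.141 ± 0.133 (SD, n = 5) in WT and 0.568 ± 0.259 (SD, n = 6) in Ts1Cje. Of the Ts1Cje animals 5 lay above all WT animals, at 0.571 to 0.771, and animal 64, one of those that stood apart, was at 0.0665. Taken against each core gene singly, Clic6 separated the groups for 2 of 18, F5 and Steap1. Both of these were lower in Ts1Cje, by -0.37 and -0.24, and the share of other genes so separated was not computed.

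With the core mean of the array as a covariate in the fit, the genotype difference in hippocampus was 0.58 ± 0.0839 for Kcne2, a fold of 1.50 (limma adjusted p = 0.121), the 2nd lowest p of all genes. For Clic6 it was 0.48 ± 0.140 (adjusted p = 1). In that fit 1 gene of all was called (0.00494%), and neither member was. Without animals 60 and 64 Clic6 was called, at 0.54 ± 0.0598 (adjusted p = 0.0179), and Kcne2 was not, at 0.59 ± 0.0876 (adjusted p = 0.0697), in a fit that called 27 genes (0.133%). Without animal 64 alone Clic6 was called too (adjusted p = 0.0455). With Ttr as the covariate the differences were 0.63 ± 0.112 for Kcne2 and 0.55 ± 0.129 for Clic6 (adjusted p = 0.258 and 0.576). Both covariates were themselves lower on average in Ts1Cje. The segment median of 0.29 was taken from fits without a covariate, so these values cannot be set against it. The part of the third copy in them was not tested.

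**Figure D5:**
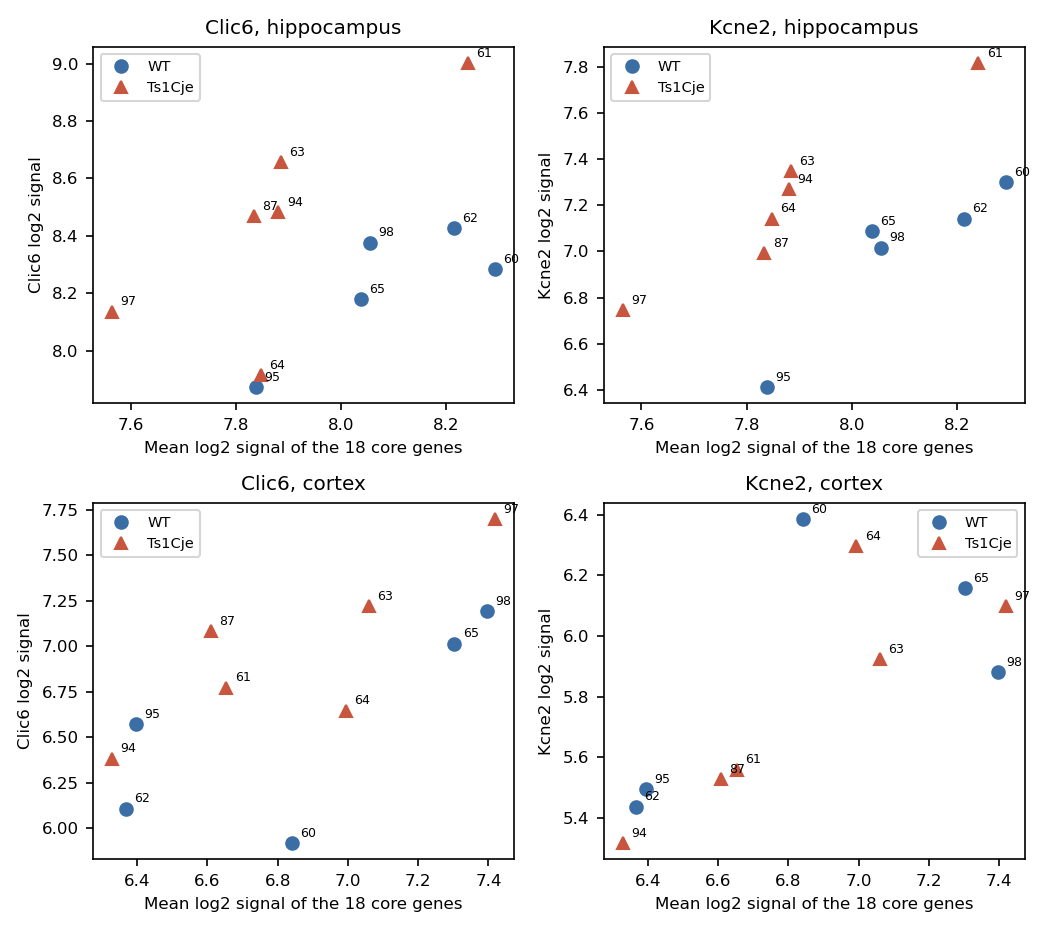
Log2 signal of Clic6 (left) and Kcne2 (right) against the mean log2 signal of the 18 core choroid plexus genes outside the segment on the same array, in hippocampus (top) and cortex (bottom); each point is 1 animal with its number, WT as blue circles and Ts1Cje as red triangles. In hippocampus the Ts1Cje points lie above the WT points at a like core mean, except animal 64 for Clic6, and in cortex Kcne2 shows no such offset.

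In the cortex 0 of 33 members were called, where 1 gene of all was (0.00494%), and 16 members lay above 0 and 17 below with a median of -0.0050. At an unadjusted p under 0.05 there were 0 members, against 1.30% of all genes. The intervals were wide for genes whose cortex signal spread most: Ttr differed by 0.53 ± 0.991 (SE; 95% interval -1.65 to 2.70), Kcnj13 by 0.20 ± 0.528 and Kl by -0.074 ± 0.445. Ttr turned to -0.079 without animals 60 and 64. The intervals of Slc12a4 (-0.16 to 0.082) and Ezr (-0.19 to 0.099), which spread little, bounded a change of these genes more tightly. Both followed Ttr only weakly in cortex, with an r of 0.22 and 0.15, so this says little about the other members.

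The intervals of the segment genes overlapped in cortex, -0.20 to 1.01 for Clic6 and -0.56 to 0.39 for Kcne2, and the genes were not tested against each other. Clic6 was 5.92, 6.11, 7.01, 6.57 and 7.19 in WT animals 60, 62, 65, 95 and 98 and ran from 6.38 through a median of 6.93 to 7.70 in Ts1Cje, a difference of 0.41 ± 0.277 (limma adjusted p = 1). Kcne2 was 6.39, 5.44, 6.16, 5.50 and 5.88 in WT and ran from 5.32 through 5.74 to 6.30 in Ts1Cje, a difference of -0.084 ± 0.216 (adjusted p = 1). With the core mean as a covariate these were 0.42 ± 0.193 and -0.073 ± 0.157 (adjusted p = 1 for both). Among the 73 segment genes, with a median of 0.33, Clic6 ranked 27th and Kcne2 68th. The median of all features on the cortex arrays was 7.53 to 7.62, above every Kcne2 value there.

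The genotype effect was tested for a difference between regions. For 0 of 33 members and 0 of all genes (0%) did it pass the threshold, with limma; 0 members and 260 genes had an unadjusted p under 0.05. The effect was lower in hippocampus for 29 of 33 members, and for 10787 of all 20239 genes. Since the members follow each other between animals, the 29 are not separate observations. Hippocampus minus cortex, it was 0.31 ± 0.301 for Kcne2 and -0.19 ± 0.342 for Clic6, and the latter turned to 0.025 without animals 60 and 64. These intervals do not show that the effects were alike.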

How the data were processed

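RNA was hybridized to Affymetrix mouse gene arrays. RMA, named in the submitters' processing notes, is a background correction with normalization and a summary of probes per feature. The authors deposited the results as log2 signals for 21225 features, each an Entrez gene number. Its settings and version: not given in the sources used here. Of the features 20239 had 1 symbol in the probe table (RefSeq GRCm38.p6) and were tested, and 986 had none. The title of 2 arrays names animal 60 where the description names 61; the title was used.

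Fits used limma 3.58.1 in R 4.3.3 (lmFit, eBayes, two-sided) with Benjamini-Hochberg adjustment over all 20239 features and calls at adjusted p under 0.05. Genotype was fitted within a region on 11 arrays, and the region contrasts (centred arrays) and the interaction on 22 arrays in 4 groups. Permutation tests used 100000 resamples in Python 3.11.15 with numpy 2.4.6. Littermates are separate animals, so n counts animals. Steps were tested on simulated data.

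All members were named. Of the fluid genes those called or with the 3 largest differences were named, of the segment the 3 measured neighbours on each side of Kcne2 and Clic6, and of genes like Ttr the 5 with the highest r; in the marker lists given, markers called were named. Members and lists were chosen with earlier results of these data known. The labels give the same animal number for both arrays of an animal, which pairs them: with group means removed, r between the arrays of a pair had a median over animals of 0.265, ranging from 0.0523 to 0.761, and the consensus correlation of a random block was 0.437. Alternatives were a trend and robust prior, array weights, quantile normalization, centring, the 6746 dimmest genes left out, an adjusted p under 0.1, the animal as a block, the series of animal numbers, Ttr or the core mean as a covariate, and leaving out animals singly or 60 and 64 together. The covariate fits without animals, the subtraction of the core mean and the relation of Ttr between regions were added after seeing the data.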

Additional observations from a re-analysis of the deposited data

Results flagged for a closer look

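In 8 of 132 groups of arrays of 1 gene, region and genotype the highest or lowest animal lay far from the others by Dixon's test, and chance flags about 1 in 20 groups. Of the 8, 6 concerned animals 60 and 64. WT animal 60 was highest for Sostdc1 in hippocampus at 9.39, with the next at 8.77. In WT cortex it was lowest for Cab39l at 7.91 and highest for Car14 at 7.75. Ts1Cje animal 64 was highest in cortex for Wfdc2 at 6.22 and for Msx1 at 7.95, and lowest for Cab39l at 8.10. Ts1Cje animal 97 was highest for Igf2 in cortex at 9.93, and WT animal 95 was lowest for Igfbp2 in hippocampus at 7.82.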

How the results depend on the processing

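Members called stayed at 0 in every alternative of both genotype comparisons and of their difference. Members called higher in hippocampus numbered 30 to 33 in both genotypes under every alternative but uncentred values, which called 24 higher and 4 lower in WT and 23 and 5 in Ts1Cje. With the animal as a fixed or random replicate block, which pairs the arrays, 32 were called in both, as without it. Of 2442 alternatives over 126 results 2347 kept direction and side of the threshold, 42 reversed, 27 passed it newly and 26 no longer passed; the causes were not tested. With the deposited values uncentred the WT region difference of Msx1, Slc12a4, Car14, Ezr and Bmp6 turned to -0.42, -0.36, -0.23, -0.22 and -0.087. In Ts1Cje that of Msx1, Slc13a4, Slc4a2, Slc12a4, Cab39l, Car14, Ezr and Bmp6 turned to -0.56, -0.034, -0.049, -0.37, -0.087, -0.36, -0.35 and -0.26. Array weights reversed the genotype difference of Sostdc1 (0.049) and Car14 (0.024) in hippocampus and of Ttr (-0.52) and Kcnj13 (-0.070) in cortex, and the regional difference in the effect of Clic6 (0.19) and Ttr (0.44). Leaving out animals 60 and 64 reversed Sostdc1 (0.013) and Car14 (0.010) in hippocampus, Ttr in cortex (-0.079) and the regional difference for Clic6 (0.025). It made Clic6 pass with the core mean as a covariate (0.54), as did leaving out animal 64. It also took the r of Kcne2 with Ttr in cortex to 0.921; without the 2 animals farthest from the median it was 0.764. That of Clic6 with Ttr in hippocampus no longer passed on deposited values (0.444) or without the 2 farthest animals (0.669), nor did that of Kcne2 on deposited values (0.508). Ttr between regions turned to 0.0020 without the 2 farthest animals. Leaving out single animals gave ranges that crossed 0 in hippocampus for Sostdc1 (-0.28 to 0.031), Igfbp2 (-0.012 to 0.11), Cab39l (-0.11 to 0.057) and Car14 (-0.092 to 0.018), in cortex for Kcne2 (-0.19 to 0.044), Kl (-0.30 to 0.24) and Kcnj13 (-0.073 to 0.56), for the regional difference of Clic6 (-0.34 to 0.017) and for Ttr between regions (-0.30 to 0.0028). They ran from 0.38 to 0.56 for Clic6 with the core mean as a covariate, and from 0.292 to 0.829 for Kcne2 with Ttr in cortex. All genes called in hippocampus numbered 1 to 35 with 1 animal left out against 23 with all, 54 with array weights and 37 without animals 60 and 64. In cortex quantile normalization called 12 genes, array weights 50 and leaving out animals 60 and 64 32; a trend and robust prior, an adjusted p under 0.1 and leaving out the dimmest genes each called 3, and leaving out single animals 1 to 7, against 1. Genes called between regions in WT and Ts1Cje, 5133 and 5950, became 11109 and 11405 with array weights, 18453 and 18229 uncentred, and 9982 and 11398 without animals 60 and 64; the random block gave 7714 in WT. Msx1 passed between regions in both genotypes with array weights and without animals 60 and 64. Leaving out the dimmest genes removed Kcne2 from the cortex fit. The number of arrays limits the precision.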
